A study of Mus musculus with 24 samples.

Results

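Vps39 lies on mouse chromosome 2, and the genes described here are 10 of its close neighbours that the array measured. In gene order they were Pla2g4e, Pla2g4d and Pla2g4f, the 3 nearest on one side of Vps39, and, as the 7 nearest on the other side, Tmem87a, Ganc, Capn3, Zfp106, Snap23, Lrrc57 and Haus2. They were listed by position and gene symbol, with earlier results of these data known, and are 10 of the 19505 genes measured. Each had 1 probe set. Expression was measured with Clariom S mouse arrays in whole tibialis anterior, a fast muscle of the lower hindlimb, from 24 untreated mice on a C57BL/6J background, with 1 array per mouse. The groups were 6 Vps39+/- females, 6 WT females, 6 Vps39+/- males and 6 WT males. Vps39+/- mice carry a cassette of a neomycin resistance gene and EGFP inserted in the second exon of 1 germ-line copy of Vps39, in every tissue, and WT mice carry no inserted cassette. Homozygous loss is lethal in the embryo, so heterozygous mice were used. Per the study's reporting form, the mice were 4 months old, while other parts of the paper give a range that starts at that age and runs higher. The position of the array's probes for Vps39 relative to the disrupted exon is not stated.

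Genes that lie beside each other on a chromosome are inherited together, so mice that carry a modified allele also carry the stretch of chromosome on which it was made. Neighbouring genes can also share control regions, and a pair transcribed away from each other from a shared start region is called divergent. The protein made from Vps39 belongs to HOPS, an assembly that brings endosomes and autophagosomes to the lysosome before they fuse. The 10 neighbours have other tasks, among them muscle proteolysis (Capn3), RNA binding (Zfp106), membrane fusion (Snap23), the mitotic spindle (Haus2) and phospholipid metabolism (Pla2g4d, Pla2g4e and Pla2g4f).

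All values are log2 RMA values, the scale on which the authors deposited them, where a difference of 1 is a doubling, and differences are Vps39+/- minus WT. Pairwise correlations between arrays were 0.935 to 0.989. The 12 skeletal muscle markers measured had a mean of 13.12 in Vps39+/- and 13.11 in WT muscle, and 0 of 12 had an unadjusted p under 0.05 for genotype. Liver transcripts stood highest in 4 arrays. These were Vps39+/- male 3 (liver-list mean 9.58), Vps39+/- male 2 (8.98), WT female 2 (11.25) and WT female 6 (10.0). The level was graded. Next came WT female 3 (7.90), Vps39+/- female 6 (7.17), WT male 6 (7.13) and Vps39+/- females 3 (7.05), 1 (6.98) and 5 (6.35). The remaining arrays lay at 5.67 or less. Arrays of this middle level were kept when the 4 were left out. The mean of the 24 liver markers measured ranged from 4.71 to 9.58 in Vps39+/- and from 4.64 to 11.25 in WT muscle. For Pla2g4e, Tmem87a and Snap23, values without these 4 arrays, which held 2 WT females and 2 Vps39+/- males, are given beside the results. In whole muscle, fewer cells of a type and less RNA per cell cannot be told apart.

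The question was whether the genes beside the disrupted one differ in Vps39+/- muscle. Pla2g4e and Pla2g4f were higher in Vps39+/- muscle and Pla2g4d, Tmem87a and Haus2 were lower, each with an unadjusted limma p under 0.05, while Ganc, Capn3, Zfp106 and Lrrc57 differed by at most 0.03. No neighbour passed the adjusted threshold of 0.05, so the differences below are values and not calls. By count, 5 of 10 neighbours (50%) had an unadjusted p under 0.05, against 7.34% of all 19572 probe sets tested. Of these, 2 were higher, against 4.72% of all genes, and 3 were lower, against 2.62% of all genes. The median size of the difference, sign ignored, was 0.21 over the 10 neighbours and 0.07 over all genes. The neighbours were chosen with earlier results of these data known, so these contrasts with all genes are a description and test nothing. Over the whole array, limma called 0 genes for genotype at an adjusted p under 0.05, with 1436 at an unadjusted p under 0.05, and the methods' t-test with the same adjustment also called 0. For none of the 10 neighbours were the values of the 12 Vps39+/- and the 12 WT mice free of overlap.

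**Figure D1:**
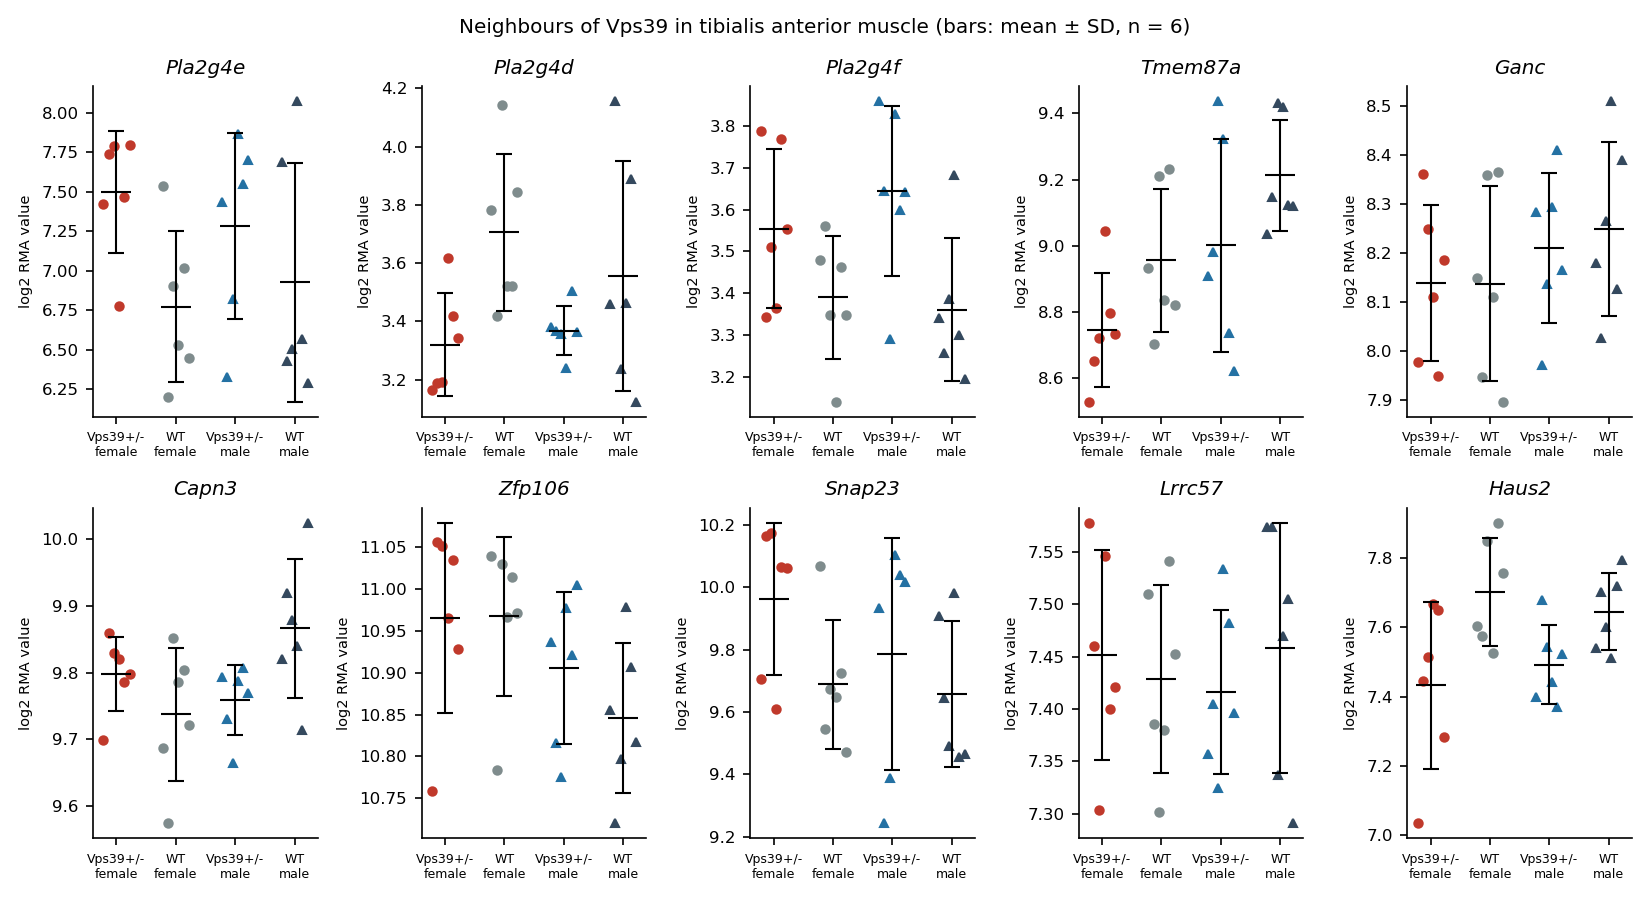
Log2 RMA value (y axis) of each of the 10 neighbours in every mouse, by group, with points for mice and bars for the mean and SD of 6 mice. Pla2g4e values fell on either side of an empty stretch between 7.02 and 7.42, with 9 of 12 Vps39+/- and 3 of 12 WT mice above it.

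Vps39 itself is the point of reference for the gene order. It ran from 6.67 to 8.29 in Vps39+/- females (median 7.98), from 6.70 to 7.82 in WT females (median 7.26), from 7.31 to 8.17 in Vps39+/- males (median 7.89) and from 7.11 to 8.22 in WT males (median 7.67). Over all mice the difference was 0.34 (SE 0.17, limma adjusted p = 0.709, permutation p = 0.0826). By qPCR in tibialis anterior, the paper reported lower Vps39 in Vps39+/- mice, with an assay that spans the disrupted part of the exon. Because the array's probes may lie outside the disrupted exon, the array values check no label.

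The phospholipase genes on one side of Vps39 stood at different distances from WT and in both directions. Pla2g4e encodes an enzyme of the cytosolic phospholipase A2 family that transfers acyl chains to phosphatidylethanolamine, the step that precedes the making of N-acylethanolamines. In females Pla2g4e ran from 6.78 to 7.79 in Vps39+/- mice (median 7.60) and from 6.20 to 7.54 in WT mice (median 6.72). In males it ran from 6.33 to 7.87 in Vps39+/- mice (median 7.495) and from 6.29 to 8.08 in WT mice (median 6.54). The groups overlapped in both sexes, and the highest value of all belonged to a WT male.

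Over both sexes, the mean of Pla2g4e was 7.39 ± 0.49 for the Vps39+/- mice and 6.85 ± 0.61 for the WT mice (SD, n = 12 each). The difference was 0.54 (SE 0.21, 95% interval 0.11 to 0.98). This was larger in size than the difference of 99.85% of all probe sets, with 9 of 12 Vps39+/- mice above the WT mean. Its unadjusted limma p was 0.0161, its adjusted p was 0.594 and its permutation p was 0.0263. Females differed by 0.73 (exact permutation p = 0.0238), and males by 0.36 (exact permutation p = 0.396). The order of the sexes depended on the arrays of high liver transcripts. Without those 4 arrays the difference of Pla2g4e was 0.50 in females (limma adjusted p = 0.866) and 0.71 in males (limma adjusted p = 0.788). When the fit held the liver-list mean as a term, it was 0.54 in each sex (limma adjusted p = 0.735 in females and 0.743 in males).

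Pla2g4d encodes another cytosolic phospholipase A2, best known from skin. It ran from 3.16 to 3.62 in Vps39+/- mice (median 3.36) and from 3.12 to 4.16 in WT mice (median 3.52). The Vps39+/- values lay close together, all 12 below the WT mean, and the WT values spread over a wider range that contained them all. The difference was -0.29 (SE 0.10, 95% interval -0.49 to -0.08, limma adjusted p = 0.552, permutation p = 0.0108). Females differed by -0.38 (exact permutation p = 0.0173), and males by -0.19 (exact permutation p = 0.342).

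Pla2g4f, the closest of the group to Vps39, also encodes a cytosolic phospholipase A2. It ran from 3.29 to 3.86 in Vps39+/- mice (median 3.62) and from 3.14 to 3.68 in WT mice (median 3.35), with 9 of 12 Vps39+/- mice above the WT mean. The difference was 0.22 (SE 0.07, 95% interval 0.07 to 0.37, limma adjusted p = 0.508, permutation p = 0.00536). Females differed by 0.16 (exact permutation p = 0.128), and males by 0.28 (exact permutation p = 0.0433).

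Pla2g4d and Pla2g4f were dim. Both had a mean of 3.49 over all arrays, and the 5th to 95th percentile of the means of 1091 olfactory receptor probe sets, taken as a rough guide to the dim end, ran from 2.11 to 4.72. The array gives no detection call here, so whether muscle transcribes these genes was not tested. The 9 keratinocyte markers measured had a mean of 4.42 (4.33 to 4.65) in Vps39+/- and 4.45 (4.26 to 4.65) in WT muscle, 7 of 9 had a mean under 5, and 1 of 9 had an unadjusted p under 0.05. Of the 5 measured genes of the group IV phospholipases A2, 2 were higher and 1 was lower at an unadjusted p under 0.05, and these were Pla2g4e, Pla2g4f and Pla2g4d themselves, none past the adjusted threshold.

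On the other side of Vps39, its direct neighbour Tmem87a and the outermost gene Haus2 were lower in Vps39+/- muscle. Tmem87a encodes a membrane protein of the Golgi apparatus. In females it ran from 8.53 to 9.04 in Vps39+/- mice (median 8.73) and from 8.70 to 9.23 in WT mice (median 8.88). In males it ran from 8.62 to 9.44 in Vps39+/- mice (median 8.94) and from 9.04 to 9.43 in WT mice (median 9.14). Vps39+/- values began lower than WT values in each sex and the ranges overlapped. The difference was -0.21 over all mice (SE 0.10, unadjusted limma p = 0.0482, adjusted p = 0.676, permutation p = 0.0572), and 10 of 12 Vps39+/- mice lay below the WT mean. Without the 4 arrays of high liver transcripts it was -0.34 over all mice left (limma adjusted p = 0.51), -0.31 in females and -0.32 in males.

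Haus2 encodes a subunit of augmin, the complex from which microtubules branch in the spindle. In females Haus2 ran from 7.03 to 7.67 in Vps39+/- mice (median 7.48) and from 7.52 to 7.90 in WT mice (median 7.68). In males it ran from 7.37 to 7.68 in Vps39+/- mice (median 7.48) and from 7.51 to 7.795 in WT mice (median 7.65). The groups overlapped in a narrow band, and 11 of 12 Vps39+/- mice lay below the WT mean. Haus2 was lower with an exact permutation p of 0.0411 in females and 0.0433 in males, where the differences were -0.27 and -0.15. In males the limma interval ran from -0.35 to 0.05 (adjusted p = 0.779), and over all mice the limma adjusted p was 0.508. Of the 6 augmin subunits measured, Haus2 was the 1 with an unadjusted p under 0.05.

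Haus2 and Lrrc57 are a divergent pair, and their start regions are shown because the windows overlap across both starts. Lrrc57 encodes a little studied protein with leucine-rich repeats. RefSeq (GRCm38.p6) lists 2 windows for Haus2 and 3 for Lrrc57, each from 250 bases before to 50 after a start. In the pair whose starts lie closest, 24 bases apart, the windows share 123 bases. The windows follow 5′ to 3′ on each gene's own strand, with the shared stretch in capitals, Haus2 at chr2:120609132-120609431 on the plus strand and Lrrc57 at chr2:120609309-120609608 on the minus strand.
Haus2: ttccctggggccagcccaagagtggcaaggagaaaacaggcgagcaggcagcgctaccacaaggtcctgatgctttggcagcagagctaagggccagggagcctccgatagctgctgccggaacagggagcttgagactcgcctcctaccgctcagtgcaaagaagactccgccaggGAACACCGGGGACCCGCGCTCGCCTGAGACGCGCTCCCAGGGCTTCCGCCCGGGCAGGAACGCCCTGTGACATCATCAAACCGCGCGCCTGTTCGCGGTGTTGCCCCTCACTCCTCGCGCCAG
Lrrc57: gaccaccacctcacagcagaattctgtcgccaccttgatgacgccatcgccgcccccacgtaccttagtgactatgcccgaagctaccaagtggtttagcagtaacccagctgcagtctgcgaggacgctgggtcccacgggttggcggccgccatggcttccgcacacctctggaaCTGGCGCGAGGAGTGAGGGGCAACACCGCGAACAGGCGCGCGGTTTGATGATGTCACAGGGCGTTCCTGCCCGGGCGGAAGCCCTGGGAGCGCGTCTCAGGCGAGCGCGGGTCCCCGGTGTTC

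In these mice the genotype difference was -0.21 for Haus2 and near 0 for Lrrc57, neither past the adjusted threshold. The contrast within this pair, like that of Tmem87a with Ganc below, was chosen after the values had been seen. Its permutation p-values are therefore a description. Lrrc57 ran from 7.30 to 7.58 in Vps39+/- mice and from 7.29 to 7.57 in WT mice, a difference of -0.01 (95% interval -0.11 to 0.09). Within each mouse, Haus2 minus Lrrc57 averaged 0.028 ± 0.23 for the Vps39+/- mice and 0.23 ± 0.18 for the WT mice (SD, n = 12 each), with a difference of -0.20 (SE 0.08, permutation p = 0.02), with 10 of 12 Vps39+/- mice below the WT mean. For this quantity females differed by -0.29 (exact permutation p = 0.0476), and males by -0.11 (exact permutation p = 0.312). With the group means subtracted, Haus2 and Lrrc57 had a Pearson's r of -0.23 over the 24 mice.

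Tmem87a and Ganc start on opposite strands, 220 bases apart, but are not divergent as defined above. The minus-strand start of Tmem87a (120404116) lies beyond the plus-strand start of Ganc (120403896). Each gene is thus transcribed across the start of the other, and their RefSeq windows share 0 bases. Ganc encodes neutral alpha-glucosidase C, an enzyme linked to glycogen breakdown. Ganc ran from 7.95 to 8.41 in Vps39+/- mice and from 7.90 to 8.51 in WT mice, a difference of -0.02 (95% interval -0.17 to 0.13). Within each mouse, Tmem87a minus Ganc averaged 0.70 ± 0.32 for the Vps39+/- mice and 0.89 ± 0.14 for the WT mice (SD, n = 12 each), with a difference of -0.19 (SE 0.10, permutation p = 0.0707) that missed 0.05. The Tmem87a window is shown because it alone, among those of the 10 neighbours, held the ETS core CCGGAAG, found in 8.86% of 32817 RefSeq windows of this length when both strands were searched. It held 3 matches, printed in capitals, and lies at chr2:120404067-120404366 on the minus strand.
Tmem87a: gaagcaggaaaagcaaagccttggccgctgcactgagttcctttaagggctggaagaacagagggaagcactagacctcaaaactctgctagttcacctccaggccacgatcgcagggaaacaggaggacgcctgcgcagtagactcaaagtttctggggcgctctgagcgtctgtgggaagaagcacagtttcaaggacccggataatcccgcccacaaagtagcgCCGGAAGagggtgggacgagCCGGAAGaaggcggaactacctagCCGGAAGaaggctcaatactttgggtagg

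Between these pairs lay Capn3, Zfp106 and Snap23, and the genotype differences of Capn3 and Zfp106 were within 0.03 of 0. Capn3 encodes the calpain of skeletal muscle, a protease bound to titin whose loss in people causes a limb-girdle muscular dystrophy. Capn3 ran from 9.67 to 9.86 in Vps39+/- mice and from 9.57 to 10.03 in WT mice, with a difference of -0.02 (95% interval -0.12 to 0.07). The sexes lay on opposite sides, with 0.06 for females (exact permutation p = 0.221) and -0.11 for males (exact permutation p = 0.0476, with 6 of 6 Vps39+/- males below the WT mean). The test of that contrast between the sexes gave 0.17 (95% interval -0.01 to 0.35, limma unadjusted p = 0.0681, adjusted p = 0.653). Zfp106 encodes an RNA-binding zinc finger protein whose loss in mice causes motor neuron and muscle degeneration. It ran from 10.76 to 11.06 in Vps39+/- mice and from 10.72 to 11.04 in WT mice, a difference of 0.03 (95% interval -0.08 to 0.13). Of the 9 genes measured in a list of the calpain system, and of the 5 alpha-glucosidases, 0 had an unadjusted p under 0.05.

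Snap23 encodes a SNARE of the plasma membrane, part of the machinery by which vesicles that carry the glucose transporter GLUT4 fuse with the cell surface. In females Snap23 ran from 9.61 to 10.18 in Vps39+/- mice (median 10.06) and from 9.47 to 10.07 in WT mice (median 9.66). In males it ran from 9.24 to 10.10 in Vps39+/- mice (median 9.98) and from 9.46 to 9.98 in WT mice (median 9.57). The Vps39+/- medians stood near the top of the WT ranges, but the lowest value of all was that of a Vps39+/- male. The difference was 0.20 (SE 0.11, 95% interval -0.02 to 0.42, limma adjusted p = 0.715, permutation p = 0.0794), with 9 of 12 Vps39+/- mice above the WT mean. Without the 4 arrays of high liver transcripts it was 0.28 over all mice left (limma adjusted p = 0.567), 0.19 in females and 0.37 in males, against 0.28 in females and 0.13 in males with all arrays. Of 10 measured SNAREs and partners of plasma membrane fusion, Snap23 included, 0 had an unadjusted p under 0.05 with all arrays.

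**Figure D2:**
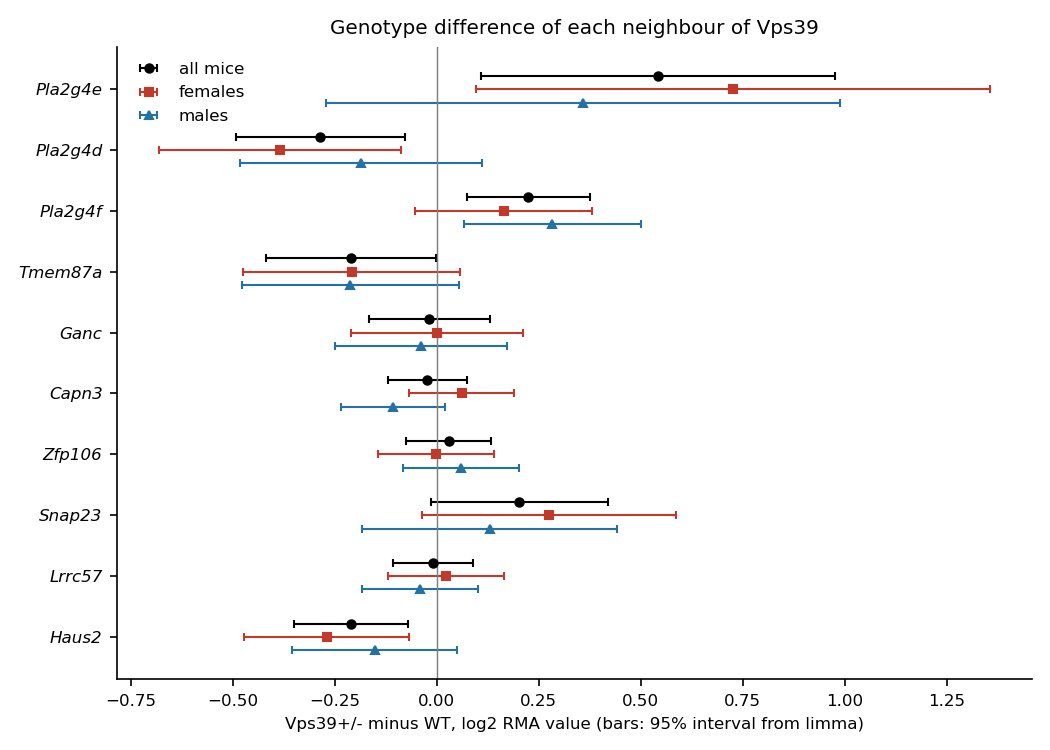
Genotype difference, Vps39+/- minus WT in log2 RMA values (x axis), of the 10 neighbours in gene order (y axis), in all mice, in females and in males, with 95% intervals from limma. Pla2g4e stands at 0.54 in all mice, 0.73 in females and 0.36 in males, while Ganc, Capn3, Zfp106 and Lrrc57 lie within 0.03 of 0 in all mice.

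Within females, 3 of 10 neighbours had an unadjusted p under 0.05, against 8.32% of all genes, and these were Pla2g4e, Pla2g4d and Haus2. Within males, 1 of 10 did, Pla2g4f, against 7.00% of all genes. When the 4 arrays of high liver transcripts were left out, 4 of 10 did in males (Pla2g4e, Pla2g4f, Tmem87a and Snap23), against 6.11% of all genes. For the genotype by sex interaction the count was 0 of 10, against 7.79% of all genes, so no neighbour was shown to differ by genotype more in one sex than in the other. In each sex the smallest adjusted limma p of a neighbour was 0.528 or more.

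Between the sexes, Tmem87a differed most. It averaged 9.11 ± 0.27 in males and 8.85 ± 0.22 in females (SD, n = 12 each), a difference of 0.26 (SE 0.09, limma adjusted p = 0.138, permutation p = 0.019), with 10 of 12 males above the female mean. It was the 1 neighbour of 10 with an unadjusted p under 0.05, against 15.6% of all genes. At an adjusted p under 0.05, 0 of 10 neighbours were called, against 3.38% of all genes. Without the 4 arrays of high liver transcripts the difference in Tmem87a was 0.16 (limma adjusted p = 0.462). In Zfp106 the male minus female difference was -0.09 (permutation p = 0.0305, limma adjusted p = 0.374).

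Each sample's title holds a number, followed by a point, that no source explains, and 4 of the 5 numbers held both genotypes, in unequal mixes of the sexes. Within them the difference of Pla2g4e was 0.38 (5 Vps39+/- and 4 WT mice), -0.27 (3 and 2), 1.4 (2 and 2) and 0.89 (2 and 2). Haus2 differed by -0.19, 0.064, -0.39 and -0.38 in the same order, and Tmem87a by -0.20, -0.33, -0.094 and -0.35. Pla2g4d differed by -0.45, 0.11, -0.22 and -0.25, and Pla2g4f by 0.22, -0.060, 0.44 and 0.22. Of the 5 neighbours with an unadjusted p under 0.05, all but Tmem87a thus stood on the other side of 0 in the set of 3 Vps39+/- and 2 WT mice, where 2 of the Vps39+/- mice were female and both WT mice were male. With the number as a fixed block, the unadjusted limma p was 0.0418 for Pla2g4e and 0.0105 for Haus2.

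Further out along the chromosome the share under 0.05 was lower than among the 10 neighbours, a difference that was not tested. Among the 30 other genes within 20 measured genes on each side of Vps39, 4 (13.3%) reached an unadjusted p under 0.05. The share over all probe sets was 7.34%. Of these 4 genes, 3 were higher and 1 was lower, and the median size of the difference over the 30 was 0.09. Among the 10 other genes within 10 measured genes on each side, 2 (20%) reached an unadjusted p under 0.05. Ltk, a receptor tyrosine kinase gene, was 0.24 higher at a mean of 4.54. Ttbk2, a kinase needed to build cilia, stood at -0.17 at a mean of 6.48. Tmem62, which encodes a transmembrane protein, was 0.20 higher at a mean of 4.86, and Epb42, a protein of the red cell membrane skeleton, was 0.25 higher at a mean of 3.81. Their adjusted limma p were 0.581 to 0.676. Among the 20 of the 30 genes with a mean of 5 or more, 1 (5%) remained under 0.05. With the same filter, which left out Pla2g4d and Pla2g4f, 3 of the neighbours described here did.

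**Figure D3:**
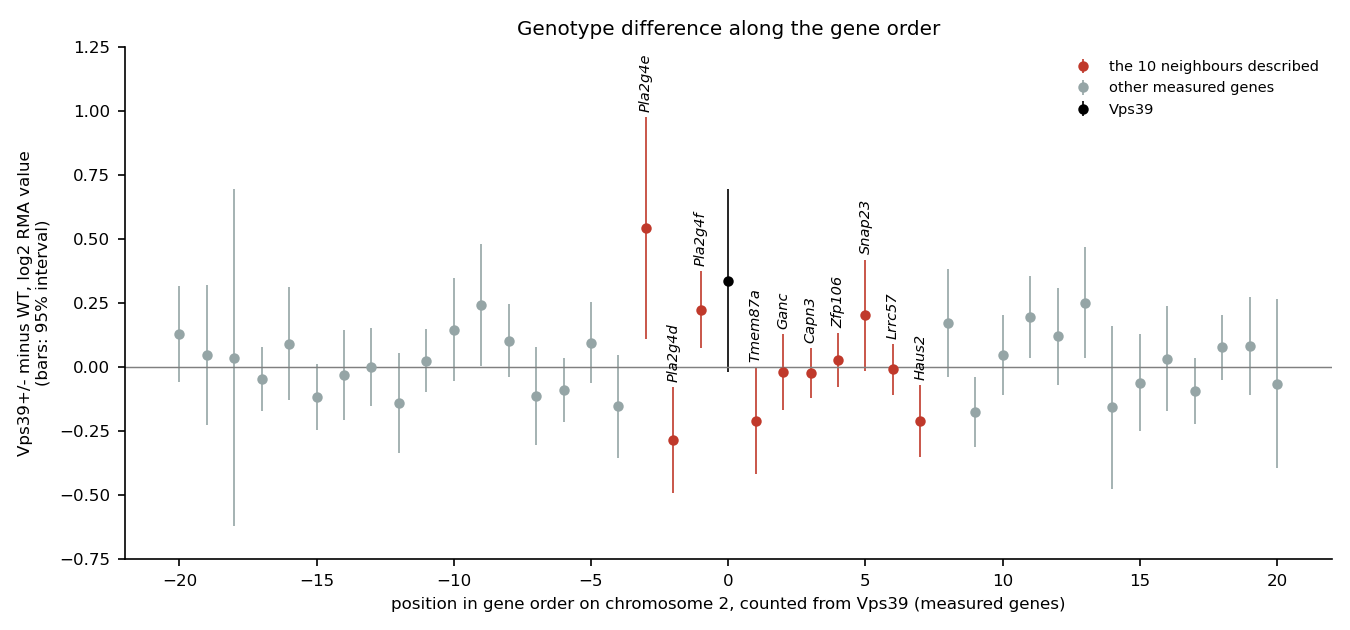
Genotype difference, Vps39+/- minus WT in log2 RMA values with 95% intervals (y axis), along the gene order of chromosome 2 (x axis, 20 measured genes on each side of Vps39 at 0). The 10 neighbours are in red, Vps39 in black and the other genes in grey, and Pla2g4e at 0.54 stands highest.

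Pla2g4e and Snap23 lie on opposite sides of Vps39 with other genes between them, and they varied together among mice of the same group. The slope of Snap23 on Pla2g4e, with the 4 group means in the fit, was 0.43 (limma adjusted p = 0.00106 over 19571 other probe sets). In the same fit 2 genes passed, 0.0102% of all genes, and the other was Hypk, which encodes a partner of the enzyme that acetylates protein N-termini and lies 29 measured genes beyond Vps39 on the side of Snap23 (slope 0.32, adjusted p = 0.0362). Within groups, Pearson's r of Pla2g4e with Snap23 was 0.87 in Vps39+/- females, 0.92 in WT females, 0.98 in Vps39+/- males and 0.95 in WT males, as a description over 6 mice each. This relation was looked for after the values had been seen.

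The values of Pla2g4e fell into a lower and an upper range. Ordered by Pla2g4e, the 24 mice left a gap of 0.41 between 7.02 and 7.42, and the next widest gap was 0.21. Above the gap, Snap23 ran from 9.71 to 10.18, and below it from 9.24 to 9.73. As a description, and without subtracting group means, Pearson's r was 0.41 among the 12 mice above and 0.48 among the 12 mice below. A split on Pla2g4e narrows its range and so lowers r, and these values test nothing. Both sides held both genotypes and both sexes. Without the 4 arrays of high liver transcripts the slope of Snap23 was 0.36 (limma adjusted p = 0.216) and that of Hypk 0.30 (limma adjusted p = 0.414), so that 0 genes passed.

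**Figure D4:**
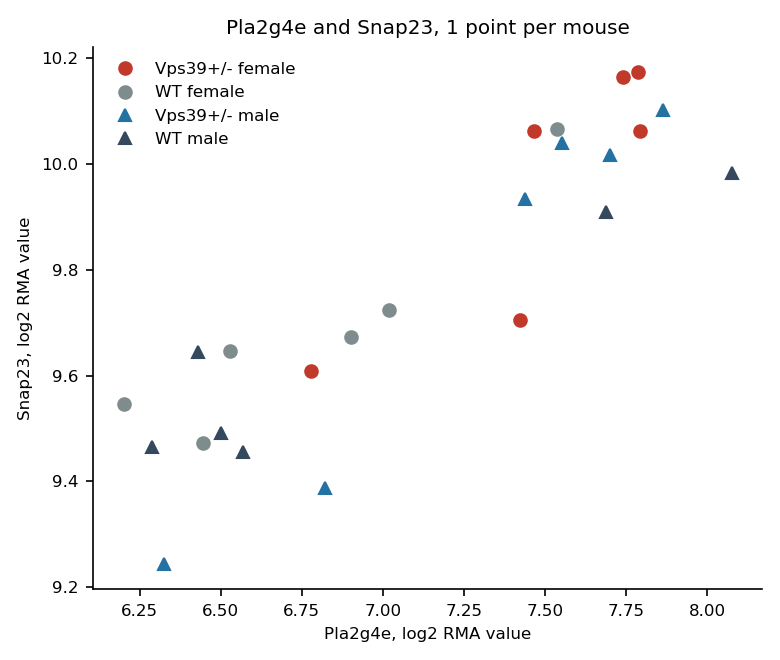
Log2 RMA value of Snap23 (y axis) against that of Pla2g4e (x axis) in each of the 24 mice, with a marker and colour for each group. Mice with Pla2g4e above 7.42 had Snap23 values of 9.71 to 10.18, and those with Pla2g4e below 7.02 had values of 9.24 to 9.73.

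The start regions of the pair are shown because these genes moved together from mouse to mouse. The Pla2g4e window, chr2:120245286-120245585 on the minus strand, had 46.0% G or C and 7 CpG, and held 1 match to the E-box CAGCTG of myogenic factors, in capitals, a motif found in 16.3% of all windows. The Snap23 window, chr2:120567421-120567720 on the plus strand, had 60.3% G or C and 25 CpG, and held 1 match to the CCAAT box, a motif found in 37.4% of all windows. That match lies on the opposite strand, so the capitals read ATTGG.
Pla2g4e: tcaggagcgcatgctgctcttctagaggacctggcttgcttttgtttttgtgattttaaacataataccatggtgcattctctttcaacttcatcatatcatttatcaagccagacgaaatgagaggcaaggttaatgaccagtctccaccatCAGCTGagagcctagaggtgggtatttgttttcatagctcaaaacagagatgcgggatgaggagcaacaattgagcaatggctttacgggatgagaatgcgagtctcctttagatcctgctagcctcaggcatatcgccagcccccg
Snap23: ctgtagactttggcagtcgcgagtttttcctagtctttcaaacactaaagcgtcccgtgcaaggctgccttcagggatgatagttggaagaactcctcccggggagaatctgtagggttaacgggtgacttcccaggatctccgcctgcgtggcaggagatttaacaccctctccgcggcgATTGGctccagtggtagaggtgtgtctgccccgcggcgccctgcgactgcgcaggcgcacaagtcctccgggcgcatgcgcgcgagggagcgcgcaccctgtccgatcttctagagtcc

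Over all windows the medians were 52.7% G or C and 7 CpG. None of the 4 motifs searched was found in both windows of the pair. Of the 10 neighbours, 4 had the E-box in at least 1 window, 2 the CCAAT box (Zfp106 and Snap23), 1 the TATA box TATAAA (Pla2g4d, in 13.6% of all windows) and 1 the ETS core (Tmem87a). Both strands were searched, and no motif of the 4 is contained in another. A match describes the letters in the window and nothing about binding.

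**Figure D5:**
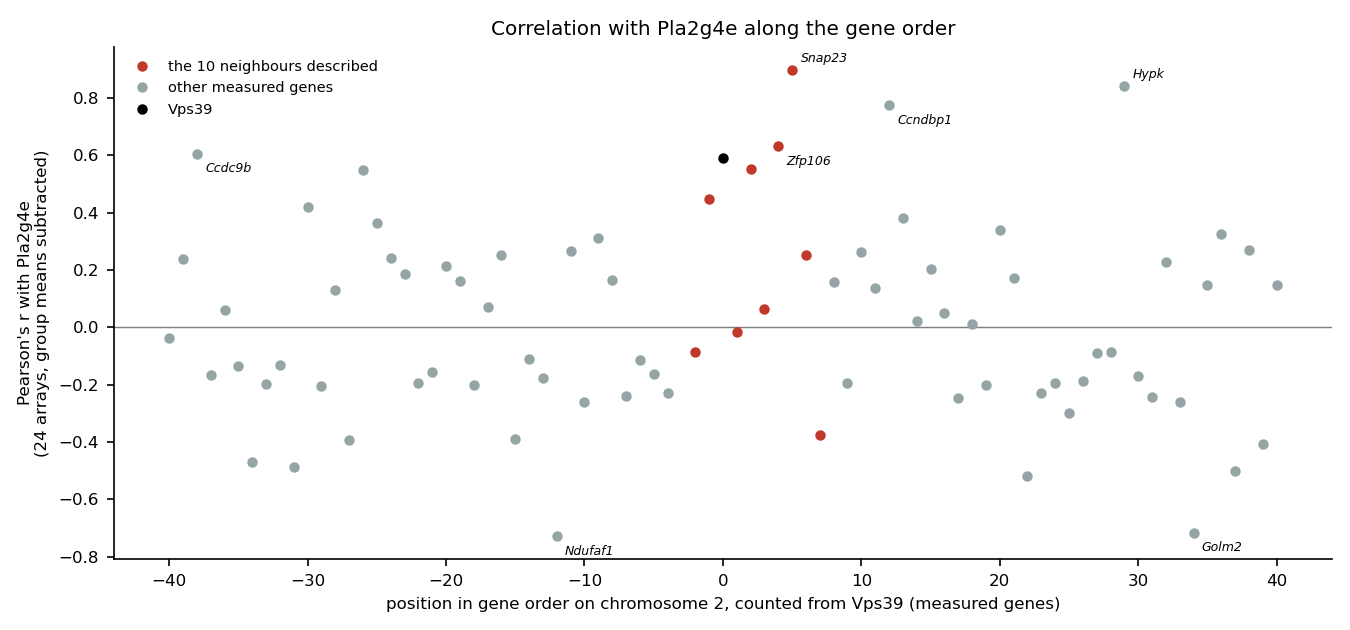
Pearson's r with Pla2g4e over 24 arrays after subtracting group means (y axis) along the gene order of chromosome 2 (x axis, 40 measured genes on each side of Vps39 at 0), with genes of 0.6 or more in size named. Snap23 and Hypk (0.84) stand highest.

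Likeness to Pla2g4e was uneven along the chromosome. Over all other genes, 0.874% had a Pearson's r of 0.6 or more in size with Pla2g4e after the group means were subtracted. Among the other neighbours of Vps39 this held for 2 of 30 within 20 measured genes on each side and for 5 of 70 within 40. Both counts take in negative as well as positive r, with -0.73 and 0.78 for the 2 within 20. The genes outside the 10 neighbours most like it over the 24 mice were Hypk (0.84), Spata2 (0.79), which encodes an adaptor of the deubiquitinase CYLD, and Ccndbp1 (0.78), which encodes a cyclin D binding protein, all on chromosome 2. Of the 20 genes with the largest r in size, Snap23 included, 8 (40%) lay on chromosome 2, which held 8.37% of all genes tested, and they were spread over positions from 407 measured genes on the side of Pla2g4e to 502 on the side of Snap23. Among these 8, r was of both signs and ran from -0.73 to 0.90.

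Among the 45 pairs of neighbours, with permutation p of Pearson's r adjusted over the 45 pairs computed, 5 passed 0.05 besides Pla2g4e with Snap23. They joined Zfp106 to Snap23 and Pla2g4e, and Ganc to Capn3, Zfp106 and Pla2g4e. Zfp106 and Snap23 had a Pearson's r of 0.66 over 24 mice with group means subtracted (permutation p = 0.00053, adjusted p = 0.0119), a Spearman's rho of 0.72 (permutation p = 8e-05) and an r of 0.68 without the 2 mice farthest from the median. Zfp106 and Pla2g4e had an r of 0.63 (permutation p = 0.00088, adjusted p = 0.0132, rho 0.70 with permutation p = 0.00026, r without the 2 mice 0.56). Both relations link Zfp106 to the genes that varied together above. Ganc and Capn3 had an r of 0.57 (permutation p = 0.00353, adjusted p = 0.0318, rho 0.60 with permutation p = 0.00226, r without the 2 mice 0.63). Ganc and Zfp106 had an r of 0.58 (permutation p = 0.00323, adjusted p = 0.0318, rho 0.55 with permutation p = 0.00599, r without the 2 mice 0.52). Ganc and Pla2g4e had an r of 0.55 (permutation p = 0.00541, adjusted p = 0.0406, rho 0.52 with permutation p = 0.0109), which was 0.40 without the 2 mice. By Spearman's rho, Ganc with Zfp106 (adjusted permutation p = 0.0539) and Ganc with Pla2g4e (0.0701) did not pass 0.05, while the other pairs named here did. The correlations of these pairs hold no liver term. Pla2g4e, Snap23, Zfp106 and Ganc each fell as the liver-list mean rose (Pearson's r -0.49, -0.57, -0.58 and -0.48). Whether that relation bears on these pairs was not tested.

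Of the 10 neighbours, 2 varied with Vps39 itself among mice of a group. Snap23 had a Pearson's r of 0.64 with Vps39 (permutation p = 0.00072, adjusted over the 10 relations computed 0.0072), a rho of 0.66 (permutation p = 0.0005) and an r of 0.64 without the 2 mice farthest from the median of Vps39. Pla2g4e had an r of 0.59 (permutation p = 0.002, adjusted 0.01), a rho of 0.67 (permutation p = 0.00052) and an r of 0.62 without those mice. The other 8 had adjusted p of 0.172 or more. Without the 4 arrays of high liver transcripts the values were 0.73 for Snap23 and 0.62 for Pla2g4e.

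By Pearson's r, the level of liver transcripts moved with some neighbours. With group means subtracted, the liver-list mean had a Pearson's r of -0.58 with Zfp106 (permutation p = 0.0028, adjusted over the 10 relations computed 0.019, rho -0.49 with permutation p = 0.017) and of -0.57 with Snap23 (permutation p = 0.0038, adjusted 0.019, rho -0.52 with permutation p = 0.00977). It was -0.49 with Pla2g4e (permutation p = 0.0146, adjusted 0.0485, rho -0.43 with permutation p = 0.0358) and -0.48 with Ganc (permutation p = 0.0194, adjusted 0.0485, rho -0.47 with permutation p = 0.021). Without the 2 mice farthest from the median of the list these were -0.38, -0.51, -0.41 and -0.41 in the same order. By Spearman's rho none passed 0.05 after the same adjustment. The adjusted permutation p of rho was 0.07 for Zfp106, Snap23 and Ganc and 0.0864 for Pla2g4e. The genotype difference in the list was -1.26 in females, 1.21 in males and -0.03 over all mice. With the list as a covariate, the genotype difference over all mice was 0.54 for Pla2g4e, 0.20 for Snap23, 0.03 for Zfp106 and -0.02 for Ganc. These were the same at 2 decimals as without it. Because the list hardly differed by genotype over all mice, the covariate could move them little. Within the sexes, Snap23 went from 0.28 to 0.17 in females and from 0.13 to 0.23 in males.

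The genes most like the other neighbours over the 24 mice, by Pearson's r with group means subtracted, lay on other chromosomes for most of them. For Tmem87a they were Mybpc2 (0.88), a myosin binding protein of fast fibres, Tecr (0.85), an enzyme of fatty acid elongation, and Cdk19 (0.84), a kinase of the Mediator complex. For Ganc they were Olfr883 (0.82), Abcc9 (0.80), a subunit of potassium channels gated by ATP, and Vps28 (0.80), a subunit of an ESCRT complex. For Zfp106 they were Pacs2 (0.82), Tbpl1 (0.82) and Ube3b (0.79), and for Snap23 Hypk (0.75), Spata2 (0.74) and Ube3b (0.73). These values describe likeness and carry no test.

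For Capn3 the most like were Smarcal1 (0.74), Upf2 (0.73), which takes part in the decay of transcripts with early stop codons, and Wac (0.73). For Lrrc57 they were Oaz3 (0.75), Krt10 (0.73) and Stx16 (0.72), and for Haus2 Prss33 (0.76), Sbf2 (0.73) and 9530077C05Rik (0.73). Pla2g4d and Pla2g4f were left out because of their dim levels.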

How the data were processed

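RNA of 24 tibialis anterior muscles was measured on Clariom S mouse arrays. The log2 values deposited by the authors came from Robust Multi-array Analysis (RMA), with quality checked in Expression Console 1.4.1.46. RMA makes the arrays' distributions alike, so a shift shared by most genes is removed and small differences at the dim end shrink. The number of arrays limits the precision.

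Of 28846 probe sets, 6640 controls and 2634 with no symbol were left out, and 19572 with 1 symbol (19505 symbols) were tested. Groups came from the labels. The fit for genotype used limma 3.58.1 (R 4.3.3) without covariates, and the sexes, their interaction and the sex difference with 4 group means. P-values were adjusted by Benjamini-Hochberg over all probe sets, with a threshold of 0.05. The slope on Pla2g4e was fitted with limma and the group means. Permutation tests (two-sided, exact for 6 against 6, otherwise 100000 draws) and correlations used scipy 1.17.1. Labels do not say whether mice shared litters, so p-values measure the spread between these mice. The scripts were tested on simulated data.

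The members and the marker and family lists were chosen with earlier results of these data known. All neighbours were named, and of other genes within 20 measured genes of Vps39 those with an unadjusted p under 0.05. For each neighbour with a mean of 5 or more, the 3 most correlated other genes were named. Hypk, the pairs of neighbours, the pairs with starts on opposite strands, the slope and the gap were chosen after the values were seen. Alternatives were other scaling, filters, weights, covariates, blocks by title number, leaving out arrays, and the methods' t-test. Gene order and windows came from RefSeq (GRCm38.p6), in which 10 of 10 neighbours were found. The sources used here do not name the annotation build of the array.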

Additional observations from a re-analysis of the deposited data

Results flagged for a closer look

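Of 40 sets of 6 mice (10 neighbours in 4 groups), 2 held a value far from the other 5 by Dixon's test, and chance flags about 1 in 20 groups. In Vps39+/- females, Pla2g4e was 6.78 in replicate 4, and the nearest value was 7.42. In WT females, Zfp106 was 10.78 in replicate 2, the array with the highest liver-list mean (11.25), and the nearest value was 10.97. Whether liver transcripts bear on this value of Zfp106 was not tested.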

How the results depend on the processing

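No neighbour passed the adjusted threshold for genotype, within a sex, for the interaction or for sex in any of 1288 recomputed differences, 64 of which had the opposite sign. Pla2g4e, Pla2g4d, Pla2g4f and Haus2 kept an unadjusted limma p under 0.05 in 24 of 24 fits that left out 1 mouse, Tmem87a in 8 of 24, and Snap23 had one in 6 of 24. Among genes of mean 5 or more, 936 genes and 3 neighbours had an unadjusted p under 0.05. Genes past the adjusted threshold for genotype were 1 with array weights, 4 with the title number as block and 0 to 3 with 1 mouse left out. With the block they were 2 in females, and in males they were 0 to 1 with 1 mouse left out. Unadjusted counts with the block were 2573 genes in females and 2289 for the interaction. Neighbours under an unadjusted p of 0.05 for the interaction were 1 after shifting arrays to the same median, 1 with the block and 0 to 1 with 1 mouse left out. In males they were 4 without the 4 arrays of high liver transcripts and 1 to 2 with 1 mouse left out. For sex they were 2 after cyclic loess and 0 without the 4 arrays, and 97 genes passed the adjusted threshold in WT mice alone. Of other genes on the chromosome, 20% within 10 per side and 5% of those with a mean of 5 or more were under 0.05. The slope on Pla2g4e was called for 1 gene after cyclic loess, 1 with the liver-list covariate, 1 with the block, 0 without the 4 arrays and 1 to 2 with 1 mouse left out. Snap23 passed in 24 of 24 such fits and Hypk in 7 of 24.

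Differences changed sign under some alternatives, most of them under 0.1 in size, while the interactions of Pla2g4e and Snap23 were 0.37 and 0.15 with all arrays. After shifting to the same median, Ganc in females was -0.00068 and Lrrc57 for sex 0.0096. After cyclic loess, Ganc in females was -0.012, the interactions of Tmem87a and Ganc -0.042 and -0.0061, and Haus2 for sex -0.0046. Without the 4 arrays, Ganc was -0.11 in females and 0.039 in males, the interactions of Pla2g4e, Ganc and Snap23 were -0.21, -0.15 and -0.18, and the sex differences of Pla2g4e, Lrrc57 and Haus2 were 0.034, 0.0079 and -0.037. With the liver-list covariate, Ganc was -0.054 in females and 0.013 in males, Lrrc57 in females -0.0031, and the interactions of Tmem87a, Ganc and Snap23 -0.015, -0.067 and -0.056. With the block, Zfp106 in females was 0.043 and the interactions of Tmem87a and Zfp106 were -0.31 and 0.0032. In WT mice alone, the sex differences of Pla2g4e, Pla2g4f, Lrrc57 and Haus2 were 0.15, -0.030, 0.030 and -0.057. With 1 mouse left out, Ganc ran from -0.046 to 0.0097 for genotype, -0.047 to 0.047 in females, -0.084 to 0.013 in males and -0.012 to 0.086 for the interaction. Lrrc57 ran from -0.023 to 0.0024 for genotype and -0.0023 to 0.053 in females, Zfp106 from -0.038 to 0.040 in females, and the interaction of Tmem87a from -0.074 to 0.090. The causes were not tested. No paired analysis was possible because no source says that the numbers in the titles pair mice across groups, and the number before the point was fitted as a block instead. No neighbour had several probe sets to average.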
